A study of Homo sapiens with 2 samples.

Results

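The 10 genes described here, HSPA1A, HSPA1B, HSPA8, HSPH1, HSP90AA1, HSPB1, DNAJA1, DNAJB1, BAG3 and ZFAND2A, encode heat-shock chaperones and co-chaperones. They were given as a set by name, out of 20136 protein-coding genes of the annotation, and the binding of NRF1 near each was read from the deposited peak list. A peak was assigned to a gene when its centre lay within 20 kb of any annotated transcription start site (TSS) of that gene or when the study's own annotation named that gene for it. Of 5683 peaks, 5 met this rule, all of them by distance, and the study's annotation, of which a shortened copy was used here, added none. The data come from 1 chromatin immunoprecipitation library of HCT116, a human colorectal carcinoma line, kept in 1 µM MG132 for 16 h and precipitated with a rabbit polyclonal antibody raised against mouse NRF1. Neither the matching input library nor cells without MG132 were analysed here, so that the peaks show where NRF1 was called under proteasome inhibition and not how binding changed. Each peak carries the score that MACS wrote, defined as 10 times the negative log10 of its p-value. With 1 library there is no replicate error and no test between samples. Read counts per peak are unknown, and the intervals given for shares of genes (95%, Wilson) cover counting error only.

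MG132 blocks the proteasome, and unfolded or damaged proteins that would be degraded then accumulate. Cells are known to answer with separate transcription programmes. Heat-shock factor HSF1 binds heat-shock elements (HSEs), alternating repeats of GAA and TTC, and raises chaperones that refold proteins or hold them in solution. NRF1, encoded by NFE2L1, is a membrane-bound factor that is released and processed when the proteasome is impaired, and it binds antioxidant response elements (AREs) together with small MAF proteins to raise proteasome subunits. Whether genes that MG132 induces as chaperones also carry NRF1 nearby is the question that the peak list was used for here.

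The sequences under the peaks are shown first, because the full form of the site was found in the ZFAND2A peak and the BAG3 intron peak and not in the others. The ARE was searched on both strands as TGA, then G or C, any 3 bases and GC. Its longer form, called the full ARE here, is TGAGTCAGC or TGACTCAGC. Each line gives an ARE with 10 bases on both sides, read 5′ to 3′ on the strand that carries it, from hg19, with the 9 bases of the ARE in capitals.
ZFAND2A full ARE, chr7:1200085-1200113, minus strand: gccgcagcccTGAGTCAGCttccccgctc
ZFAND2A second ARE, chr7:1200038-1200066, plus strand: tgggtcacagTGAGGCGGCtccgcgcagg
ZFAND2A other ARE, chr7:1200026-1200054, minus strand: cgcctcactgTGACCCAGCaagcgcgccg
BAG3 intron full ARE, chr10:121417967-121417995, plus strand: gctggcctgaTGACTCAGCatggagcgct
BAG3 intron second ARE, chr10:121417865-121417893, plus strand: tccccggttcTGACAGCGCtccatgccgg
BAG3 upstream ARE, chr10:121405775-121405803, minus strand: atgcaggcacTGACACAGCctgcccttgc
HSPA1A and HSPA1B shared ARE, chr6:31789983-31790011, minus strand: tccctaagaaTGACACAGCagttctcgcc
DNAJB1 ARE, chr19:14618384-14618412, plus strand: ccagcctggaTGACAGAGCaagtatcggt
All 5 peaks held an ARE, as did 87.4% of the 5673 peaks searched, and in all 5 an ARE lay in the central 200 bp, as in 80.3% of the peaks searched. Only the ZFAND2A peak and the BAG3 intron peak held the full form, which 61.3% of all peaks held. None of the 5 peaks held an HSE, searched on both strands as GAA, any 2 bases, TTC, any 2 bases and GAA, and 0.846% of all peaks did.

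Over the 10 genes, 5 had a peak centre within 20 kb of a TSS, namely HSPA1A, HSPA1B, DNAJB1, BAG3 and ZFAND2A. This is 50.0% of the genes (95% interval 23.7 to 76.3%), beside 18.7% of all protein-coding genes in the same window. The genes were chosen with earlier results of these data known, so that the interval is not a test of enrichment. HSPA1A and HSPA1B are neighbours and were counted with the same peak, so that the 5 genes do not make 5 separate binding events. Within 2 kb the count was 2 of 10 (interval 5.67 to 51.0%), beside 6.03% of protein-coding genes, and these were ZFAND2A and BAG3. It was still 2 within 5 kb, beside 8.97%, rose to 4 within 10 kb, beside 12.7%, and was 6 within 50 kb, beside 32.7%, and 7 within 100 kb, beside 48.8%. BAG3 entered the 2 kb window through an alternate TSS inside the gene, and ZFAND2A alone had a peak within 2 kb of the canonical TSS. HSPA8, HSPH1, HSP90AA1, HSPB1 and DNAJA1 had no peak within 20 kb. The 20 kb limit fell in a wide gap: the gene nearest to it on the inside was DNAJB1, with its peak at 10.0 kb, and on the outside HSPB1, at 37.2 kb.

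**Figure D1:**
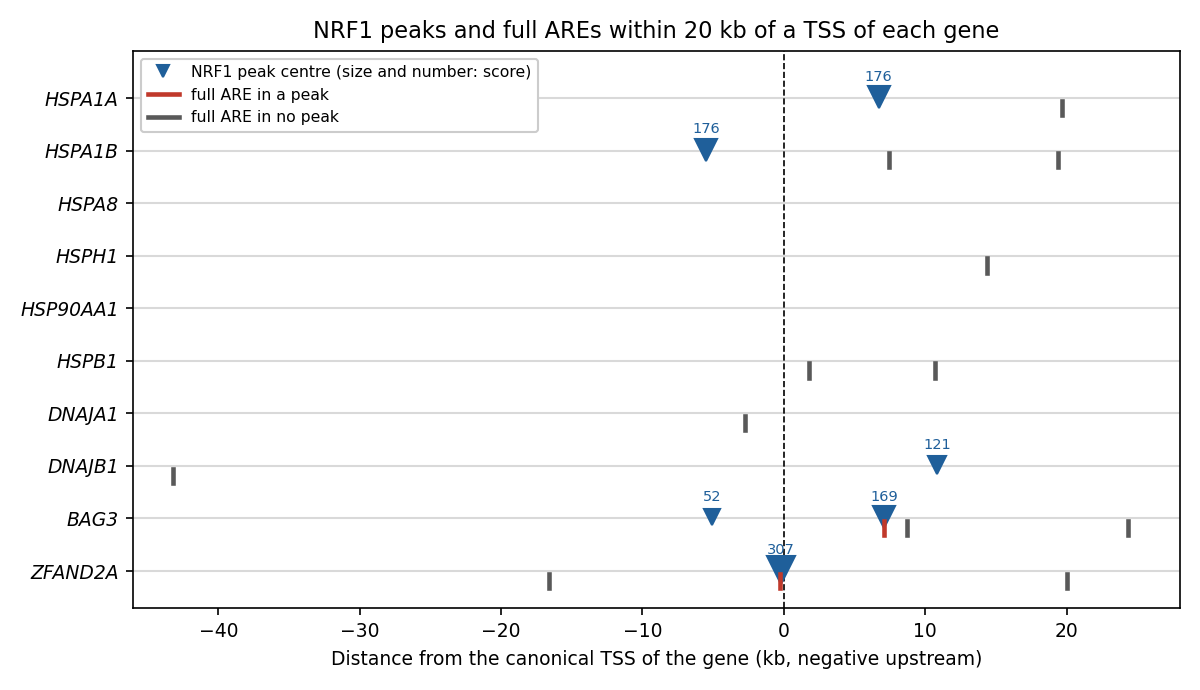
Positions of NRF1 peak centres (blue triangles, with the deposited score) and full AREs (bars, red where they lie in a peak) along each of the 10 genes, in kb from the canonical TSS, in the direction of transcription. Peaks lie near 5 of the genes, HSPA1A and HSPA1B share 1 peak, and 2 of the 13 distinct full AREs are in a peak; features farther than 20 kb from the canonical TSS lie near an alternate TSS.

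ZFAND2A encodes an arsenite-inducible zinc-finger protein that associates with the proteasome. It had the strongest peak of the group and the peak nearest to a TSS. The peak spanned chr7:1199696-1200412, had a score of 307.41 and ranked 387 of 5683 in the whole list, whose median score was 91.86 and whose upper quartile began at 152.13. Its centre lay 199 bp upstream of the nearest ZFAND2A TSS and 222 bp upstream of the canonical TSS. It lay closer than the nearest peak of 97.5% of protein-coding genes. ZFAND2A is divergent from ZFAND2A-DT, a long non-coding RNA whose TSS was 14 bp from the peak centre, so that the peak sits at the starts of both genes and position does not tell them apart. ZFAND2A was the only protein-coding gene with a TSS within 20 kb of it. The full ARE lay 45 bp from the peak centre, and the remaining pair of AREs 2 and 14 bp from it, all in a stretch annotated as exon of alternate ZFAND2A transcripts and of ZFAND2A-DT.

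BAG3 encodes a co-chaperone that binds HSP70 and brings its clients to selective autophagy together with the small heat-shock protein HSPB8. It was the only gene of the 10 with 2 peaks of its own. The intron peak, chr10:121417676-121418287, had a score of 169.06 and ranked 1204. It lay 1859 bp downstream of an alternate BAG3 TSS and 7089 bp downstream of the canonical TSS. Its full ARE was at 0 bp from the peak centre, and a degenerate ARE lay 102 bp from it. The upstream peak, chr10:121405579-121406058, was near the bottom of the list, with a score of 51.58 and rank 5502, against the lowest score of 50.00 that the list holds. It lay 5074 bp upstream of the BAG3 TSS, between genes, with a degenerate ARE 29 bp from its centre. BAG3 was the only protein-coding gene with a TSS within 20 kb of these peaks. The central 150 bases of both peaks are given to show the setting of the AREs, in capitals, on the plus strand of hg19.
BAG3 intron peak centre, chr10:121417907-121418056: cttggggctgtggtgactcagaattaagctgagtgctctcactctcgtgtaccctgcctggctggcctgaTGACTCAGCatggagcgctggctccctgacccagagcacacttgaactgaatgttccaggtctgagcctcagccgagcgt
BAG3 upstream peak centre, chr10:121405744-121405893: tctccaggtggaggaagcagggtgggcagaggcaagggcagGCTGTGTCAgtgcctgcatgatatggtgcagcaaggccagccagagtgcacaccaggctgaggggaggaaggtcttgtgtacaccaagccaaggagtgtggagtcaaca
In the upstream sequence the ARE runs on the opposite strand and is therefore seen as its reverse complement.

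HSPA1A and HSPA1B encode the stress-inducible cytosolic HSP70, the chaperone that binds exposed hydrophobic stretches of unfolded proteins. Their TSSs lie 12.2 kb apart on chromosome 6, and 1 peak was called between the genes. It spanned chr6:31789696-31790343, had a score of 176.32 and ranked 1113. Its centre lay 6699 bp downstream of the HSPA1A TSS, past the end of that gene, and 5496 bp upstream of the HSPA1B TSS. The nearest TSS of all was 278 bp away and belonged to ENSG00000289637, a long non-coding RNA. HSPA1L and LSM2 also had a TSS within 20 kb, so that position does not assign the peak to 1 gene. Its only ARE was degenerate and lay 22 bp from the centre. The central 150 bases show it in capitals, as the reverse complement.
HSPA1A and HSPA1B shared peak centre, chr6:31789945-31790094, plus strand: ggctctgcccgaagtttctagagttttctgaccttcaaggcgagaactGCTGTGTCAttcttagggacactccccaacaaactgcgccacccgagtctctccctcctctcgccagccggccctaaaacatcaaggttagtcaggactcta
HSPA1A and HSPA1B are nearly identical, which bears on where reads of 93 bases, the length sequenced, can be placed. Of the 2312 stretches of 93 bases in HSPA1A, 1680 (72.7%) also occur in HSPA1B. Within 2 kb of the TSS, 58.0% of such stretches were found once in the genome for HSPA1A and 58.0% for HSPA1B, against 96.9 to 100% for the other 8 genes. How the authors treated reads with several placements is not given in the sources used here. In the peak between the genes, 100% of the stretches occur once.

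DNAJB1 encodes HSP40, the J-protein that delivers unfolded clients to HSP70 and stimulates its ATPase. Its peak, chr19:14618137-14618597, had a score of 120.98 and ranked 1964. Its centre lay 10014 bp downstream of the nearest DNAJB1 TSS and 10842 bp downstream of the canonical TSS, beyond the end of the gene. TECR, which encodes an enzyme of very-long-chain fatty acid synthesis, had the nearest TSS, at 9530 bp, and GIPC1 also lay within 20 kb. The only ARE was TGACAGAGC, 31 bp from the centre. Of the 7 ARE words found in the 5 peaks, this had the most matches in the genome, with 138982 matches in the genome, of which 0.122% lay in a peak, against 9.23% of TGACTCAGC and 4.26% of TGAGTCAGC.

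**Figure D2:**
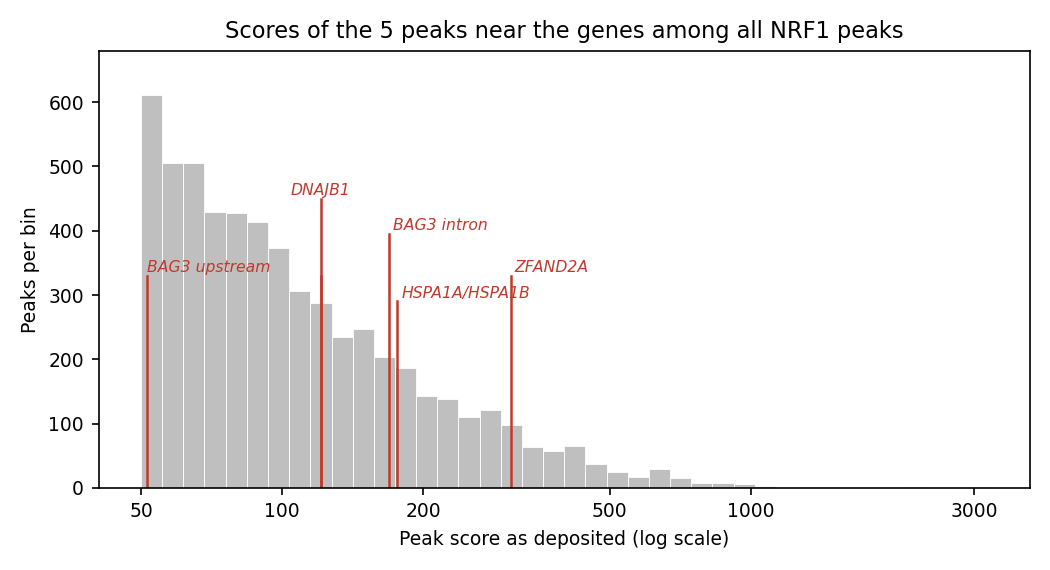
Number of NRF1 peaks by deposited score (bars, log scale on the horizontal axis), with the 5 peaks near the heat-shock genes as red lines whose height has no meaning. The ZFAND2A peak has the highest score of the 5, at 307.41, and the BAG3 upstream peak lies at the lower end of the list, at 51.58.

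The other 5 genes had their nearest peak far away. HSPB1, the small heat-shock protein HSP27, which holds unfolded proteins in solution, had its nearest peak at 37.2 kb, with a score of 121.22. The TSS nearest to that peak was that of YWHAG. DNAJA1, a J-protein partner of HSP70, had its nearest peak at 83.5 kb, with a score of 101.79 and nearest to a TSS of SMU1. HSP90AA1, the stress-inducible cytosolic HSP90 that matures kinases and receptors, had its nearest peak at 116 kb, with a score of 50.24, rank 5645 and nearest to a TSS of MOK. HSPA8, the constitutive HSC70, had its nearest peak at 202 kb, with a score of 113.64 and nearest to a TSS of ENSG00000285909. HSPH1, the HSP110 that exchanges nucleotide on HSP70, had its nearest peak at 609 kb, with a score of 89.08 and nearest to a TSS of MFAP1P1. The nearest peaks of HSPB1, DNAJA1, HSP90AA1 and HSPH1 each held a full ARE, and that of HSPA8 held a degenerate ARE only. Of all protein-coding genes, 72.8% had a nearest peak farther away than HSPB1, 55.7% than DNAJA1, 47.3% than HSP90AA1, 32.6% than HSPA8 and 9.26% than HSPH1. The median over all protein-coding genes was 105 kb, so that DNAJA1 and HSPB1 lay nearer to a peak than the median gene, and HSP90AA1, HSPA8 and HSPH1 farther. Within 1 Mb there were 5 peaks each for HSPA8 and HSPH1, 6 for DNAJA1, 8 for HSP90AA1 and 9 for HSPB1, against quartiles of 3, 6 and 9 over protein-coding genes. Stretches of 93 bases within 20 kb were unique for 99.0 to 99.9% in these 5 genes.

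**Figure D3:**
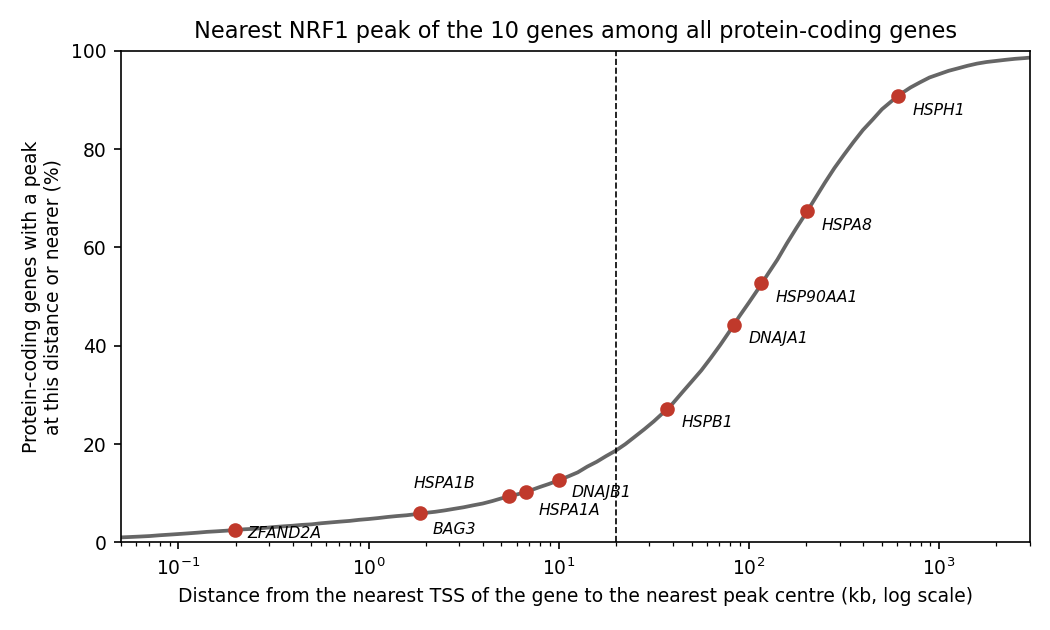
Share of protein-coding genes (vertical axis, %) whose nearest NRF1 peak centre is at a given distance or nearer (horizontal axis, kb, log scale), with the 10 genes as red points and the 20 kb limit as a dashed line. ZFAND2A lies at 0.199 kb and HSPH1 at 609 kb, and no gene of the 10 falls between 10.0 and 37.2 kb.

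AREs also lay near the genes without a peak. Within 20 kb of a TSS of the 10 genes the genome holds 451 AREs, of which 8 (1.77%) lay in a peak. The share was 0.394% of the 2027857 AREs of the whole genome and 0.513% of those within 20 kb of a protein-coding TSS. The same windows hold 13 full AREs, of which 2 (15.4%) lay in a peak, beside 7.37% of 53132 in the genome and 9.09% of those within 20 kb of a protein-coding TSS. HSPA8 and HSP90AA1 had no full ARE in their windows, and HSPH1, HSPB1 and DNAJA1 had 1, 2 and 1, none of them in a peak. 3 of the full AREs in no peak, chosen after their positions were seen, are shown to set beside the sites in peaks, with the 9 bases in capitals.
HSPB1 full ARE in no peak, 1757 bp downstream of the canonical TSS, chr7:75933733-75933761, minus strand: tttatggatgTGAGTCAGCctgtgtccag
DNAJA1 full ARE in no peak, 2771 bp upstream in an APTX intron, chr9:33022486-33022514, plus strand: acattcatgtTGACTCAGCaatttcaatt
BAG3 full ARE in no peak, 8693 bp downstream of the canonical TSS, chr10:121419571-121419599, minus strand: tgggggcaccTGAGTCAGCatccagcctc
The 9 bases of the HSPB1 site and of the BAG3 site in no peak are identical to those of the ZFAND2A site in the strongest peak, and those of the DNAJA1 site are identical to those of the BAG3 intron site. Full AREs within a few kb of a TSS thus lay both inside and outside the listed peaks.

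The promoters of the same genes were searched for the HSE, in the RefSeq table of GRCh38.p14, which covers 250 bases before to 50 bases after each gene start. An exact HSE was found in the promoters of HSPA8, HSP90AA1 and DNAJA1, 3 of 10 genes, beside 0.490% of 35114 promoters. With 1 mismatch allowed, 8 of 10 genes had a match, all except HSPH1 and BAG3, beside 6.24% of promoters. In these counts the 10 genes are counted per gene and the background per promoter. DNAJB1 has 3 promoters in this table and HSP90AA1 has 2, so that the units are not alike. The HSPH1 promoter of this table did not hold the exact HSE found 53 bp upstream of the canonical TSS on hg19. These promoter counts thus do not show that HSPH1 lacks an HSE near its TSS. Within 1 kb on both sides of the canonical TSS on hg19, an exact HSE was found for 6 of 10 genes, beside 2.63% of protein-coding genes. These were HSPA8, HSPH1, HSP90AA1, HSPB1, DNAJA1 and BAG3, which include each of the 5 genes with no NRF1 peak within 20 kb. For HSPB1 this rests on overlapping matches in an exon, centred 953 and 958 bp downstream of the TSS and so near the edge of the window. Of the 5 genes with a peak, BAG3 had such an exact HSE, while HSPA1A, HSPA1B, DNAJB1 and ZFAND2A had promoter matches with 1 mismatch only. The exact HSE nearest to the TSS of each of these 6 genes is shown in capitals with 8 bases on both sides, from hg19.
HSPA8 HSE, 49 bp upstream, chr11:122932879-122932907, plus strand: ctatcttaGAACCTTCCAGAAggggcccg
HSPH1 HSE, 53 bp upstream, chr13:31736080-31736108, plus strand: actgatcaGAACTTTCCAGAAtctgcggc
HSP90AA1 HSE, 82 bp upstream, chr14:102553449-102553477, plus strand: agcctcccGAACCTTCCGGAAgaaccctc
DNAJA1 HSE, 9 bp downstream, chr9:33025266-33025294, plus strand: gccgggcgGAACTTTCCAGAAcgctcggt
HSPB1 HSE, 953 bp downstream, chr7:75932929-75932957, plus strand: gaatcgaaGAACTTTCCGGAAgtttctga
BAG3 HSE, 500 bp upstream, chr10:121410378-121410406, minus strand: ttcctttgGAAACTTCAAGAAaaaaagag
In the RefSeq promoters of HSPA1A and HSPA1B the same inexact match was found, 106 to 94 bases before the start in HSPA1A, here with its mismatched letters included in the capitals: aaaccctgGAATATTCCCGACctggcagc. An ARE was found in the promoters of HSPA1A, HSPA1B, HSP90AA1, HSPB1, DNAJA1 and ZFAND2A, beside 29.1% of all promoters, and a full ARE in none of the 10, beside 0.977%. The full ARE of ZFAND2A lies 267 bp upstream of the canonical TSS and so outside this window. A match is a sequence of letters, and HSF1 binding was not measured.

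MG132 induction was compared with NRF1 binding through the study's lists of genes raised by MG132 and of those among them lowered by NRF1 knockdown, made from arrays of the same cell line and used here only as names. HSPA1A, HSPA1B, HSPA8, HSPH1, HSPB1, DNAJB1 and ZFAND2A were on the first list, beside 284 of all 20136 protein-coding genes. HSP90AA1, DNAJA1 and BAG3 were not, which does not show that they were not induced. ZFAND2A was the only gene of the 10 on the second list, and it was also the only gene of the 10 with a peak within 2 kb of its canonical TSS. Among the 7 listed as induced, 4 had a peak within 20 kb (HSPA1A, HSPA1B, DNAJB1 and ZFAND2A), and HSPA8, HSPH1 and HSPB1 did not. HSPA1A and HSPA1B share 1 peak. The share in this window was 18.7% of all protein-coding genes and 37.2% of the other induced genes. Of the 3 not listed, BAG3 had peaks. Induction by MG132 was thus listed for chaperone genes both with and without an NRF1 peak nearby.

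Of 332 distinct symbols on the list of induced genes, 284 matched a protein-coding gene of the annotation, and of 138 on the list of those also lowered, 118 did. The unmatched symbols were left out. In all, 107 of 284 induced genes (37.7%, 95% interval 32.2 to 43.4%) had a peak within 20 kb, beside the 18.7% of protein-coding genes given above. Without the 7 heat-shock genes the share was 37.2% (103 of 277). It was 43.2% (34.6 to 52.2%) for the 118 genes also listed as lowered by NRF1 knockdown and 33.7% (27.0 to 41.2%) for the 166 not so listed. Within 2 kb these shares were 35.6% (27.5 to 44.6%) and 17.5% (12.4 to 24.0%). Of the 7 induced heat-shock genes, all but ZFAND2A belonged to the 166. Absence from the list of lowered genes does not show that a gene was not lowered.

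Other genes of the chaperone network were counted from a list of 56, made by family and not by binding. Earlier results of these data were known when the list was made. Of these, 17 (30.4%, 19.9 to 43.3%) had a peak within 20 kb, beside 18.7% of all protein-coding genes. Among the 17 is HSPA1L, counted with the same peak as HSPA1A and HSPA1B, so that this peak enters both sets. Within 2 kb, 11 (19.6%, 11.3 to 31.8%) had a peak, beside 6.03%. By class, the count within 20 kb was 4 of 11 for other cytosolic HSP70, HSP90 and small heat-shock proteins, 2 of 7 for cytosolic J-proteins, 6 of 17 for co-chaperones and regulators, 2 of 8 for endoplasmic reticulum chaperones, 1 of 5 for mitochondrial chaperones and 2 of 8 for subunits of the CCT chaperonin. The 11 with a peak within 2 kb were HSP90AB1, HSPB8, DNAJB4, DNAJB9, HSPA9, BAG2, ST13, AHSA1, PTGES3, CCT4 and CCT5. For DNAJB4, DNAJB9, BAG2, AHSA1, CCT4 and CCT5 the TSS nearest to the peak centre belonged to another gene. Position therefore does not assign those peaks to the chaperone gene. HSPB8, the partner of BAG3, had a score of 423.77 and 2 full AREs, and the constitutive HSP90AB1 had a peak 343 bp from its TSS with a score of 154.77, where the inducible HSP90AA1 had none within 20 kb. PTGES3, the HSP90 co-chaperone p23, had a peak 1 bp from its TSS with a score of 524.48, above that of ZFAND2A. With 10 and 56 genes the intervals of the heat-shock genes and the other chaperones overlap in every window.

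**Figure D4:**
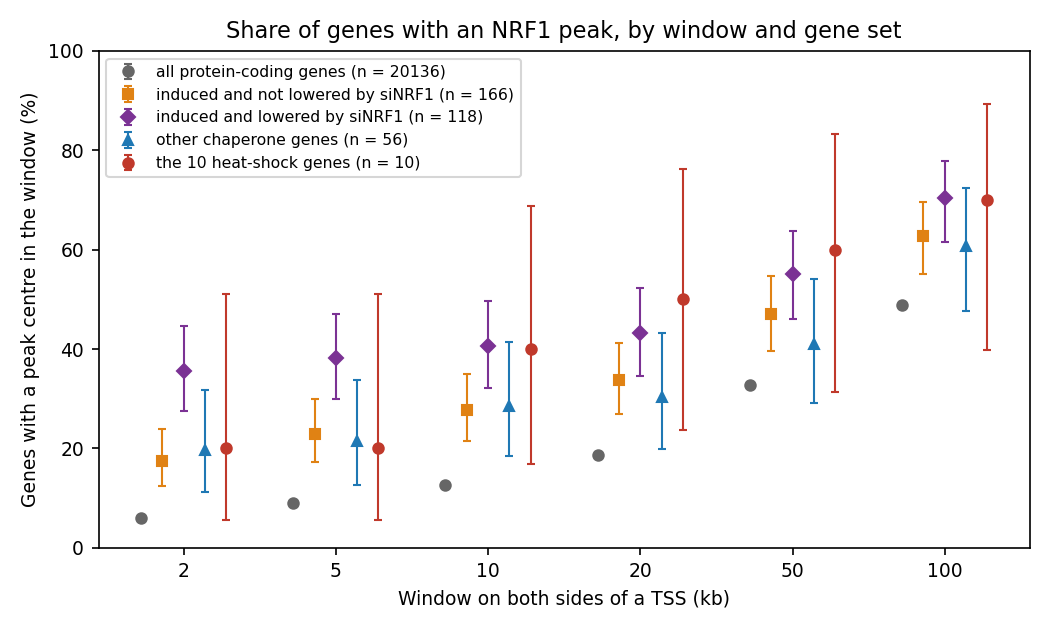
Share of genes with an NRF1 peak centre (%, 95% Wilson intervals, counting error only) in windows of 2 to 100 kb on both sides of a TSS. The 10 heat-shock genes (red) go from 2 of 10 at 2 kb to 7 of 10 at 100 kb, while all protein-coding genes (grey) go from 6.03 to 48.8%.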

How the data were processed

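NRF1 ChIP-seq of HCT116 cells was analysed from the deposited peak list. The labels and the submitters' processing notes name Bowtie2 2.2.6, MACS 1.4.2 and hg19. The authors deposited a start, an end and a score for each peak, and the score is 10 times the negative log10 of the MACS p-value. The control for peak calling is not given in the sources used here. All else was computed from these intervals: peak centres, distances to TSSs of GENCODE release 44 on hg19, ranks, and motif matches on both strands of hg19. Peaks with undetermined bases or on contigs left 5673 of 5683 for motifs.

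Genes named are the 10 members with their peaks and nearest peaks, the gene with the TSS nearest to each, and the chaperone-list genes with a peak within 2 kb. APTX, GIPC1, HSPA1L and LSM2 and single sites were named after their values were seen. The members and lists were chosen with earlier results of these data known. Searches were tested on simulated data, and all 200 planted motifs and distances of each kind were recovered. The 50 empty sequences for each motif were drawn to hold no match, so that their 0 calls do not measure false calls. The settings varied were the window, a score of at least 100, the peak edge, the TSS set, the background genes, and the ARE and HSE forms. No test was run because there is 1 library. Array values were not used, and a longer sequence of the DNAJB1 peak is not reported here. Python 3.11.15, numpy 2.4.6, scipy 1.17.1, pysam 0.24.0 and matplotlib 3.10.9 were used.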

Additional observations from a re-analysis of the deposited data

How the results depend on the processing

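With a window of 2 kb in place of 20 kb, 2 members, 6.03% of protein-coding genes, 11 other chaperone genes and 25.0% of MG132-induced genes had a peak. A window of 10 kb gave 12.7% of protein-coding genes, and a window of 50 kb gave 32.7% of them and 50.4% of induced genes. Peaks with a score of at least 100 left 9.45% of protein-coding and 23.9% of induced genes, and the members with a peak stayed at 5. The background was 16.0% with TSSs of protein-coding transcripts only, 13.1% with canonical TSSs only, a setting chosen after seeing the data, and 12.8% with all annotated genes. Requiring the full ARE left 2 of 5 peaks, and counting all ARE forms gave 8 of 451 sites in a peak instead of 2 of 13. An HSE with 1 mismatch allowed was found in the promoters of 8 members, and an exact HSE within 1 kb of the TSS in 6, against 3 in the main search. In all, 20 values were classed as the same and 16 as moved. Those classed as the same include other chaperone genes, 12 at a score of at least 100 and 23 within 50 kb, against 17. They also include full AREs in a peak, 3 of 31 (9.68%) within 50 kb, against 2 of 13 (15.4%). Each moved value rests on a wider or narrower definition of the same count. No paired analysis was possible because there is 1 ChIP library. The depth is unknown, and sites with a score under 50.00, the lowest in the list, cannot be seen here.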
